A study of Homo sapiens with 28 samples.

Results

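The stretch from 1 to 10 kb downstream of the gene start was examined in 6213 autosomal protein-coding genes of 50 to 500 kb, which were 32.5% of the 19111 autosomal protein-coding genes in GENCODE release 44. Each stretch was 9 kb long on the strand of its gene, began 1 kb past the start and was compared with the 9 kb centred on the midpoint of the same gene. The genes had a median length of 102 kb, and their early stretches amounted to 55.9 Mbp. No early stretch touched a middle window, whereas the early stretches of 267 genes overlapped that of another gene in the set.

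ChIP-seq for H3K36me2 and for a tagged ASH1L fragment in U2OS cells, a human osteosarcoma line, gave 10 lists of broad peaks. H3K36me2 was profiled against input in wild-type cells, in 2 replicates without UV and 2 replicates taken 3 h after 20 J/m2 UV-C. The Flag-tagged CTD of ASH1L was profiled against empty-vector ChIP in ASH1L-/- cells that had received the construct by transient transfection from a CMV-driven vector, in 3 replicates without UV and 3 replicates at 3 h after the same dose. All CTD and empty-vector libraries therefore lacked endogenous ASH1L, in a knockout that had been grown from isolated colonies, and the CTD was expressed from a foreign promoter. Control libraries served in peak calling and have no list of their own. The empty-vector control was pooled at 3 h and unpooled without UV, so that condition and this step of processing cannot be told apart for the CTD. The sample titles call the replicates biological. Whether same-numbered samples were prepared together is not given in the sources used here. The lists extend to weaker peaks than the p-value cutoff named in the methods of the study.

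H3K36me2 is the dimethylated form of lysine 36 of histone H3. ASH1L is one of the histone methyltransferases that deposit it, next to NSD1, NSD2 and NSD3, and the CTD is its carboxy-terminal part. In human genes, H3K36me2 is typically depleted at active promoters, where H3K4 methylation is found, and spreads over gene bodies and intergenic chromatin, while H3K36me3 laid down by SETD2 takes over in the bodies of transcribed genes. The first kilobases of a long gene lie mostly in the first intron and are crossed by RNA polymerase II soon after it leaves the promoter.

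The stretches were mostly intronic and contained few exons. Of their bases, 58.6% lay in the first intron of the canonical transcript, 19.0% in later introns, 1.70% in exons and 20.6% outside the canonical transcript. The last share arises because the gene record starts at its outermost transcript. The canonical transcript began elsewhere in 3853 genes and over 1 kb away in 1525. GC content averaged 45.8% in the step from 1 to 2 kb, 42.7% in the next step and between 42.2% and 42.3% from 3 to 10 kb, against 41.9% in the middle. CpG dinucleotides averaged 23.3 in the step from 1 to 2 kb, 14.0 in the next and 10.8 per kb in the middle.

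A site at which every H3K36me2 list had a peak is shown in hg38 on the plus strand, 5′ to 3′, with CpG dinucleotides in capitals. It was chosen among sites outside exons for a high fold enrichment in the list where that value was lowest. It lay at chr4:80115882-80116181 in ANTXR2, which encodes an anthrax toxin receptor and is on the minus strand.
ANTXR2: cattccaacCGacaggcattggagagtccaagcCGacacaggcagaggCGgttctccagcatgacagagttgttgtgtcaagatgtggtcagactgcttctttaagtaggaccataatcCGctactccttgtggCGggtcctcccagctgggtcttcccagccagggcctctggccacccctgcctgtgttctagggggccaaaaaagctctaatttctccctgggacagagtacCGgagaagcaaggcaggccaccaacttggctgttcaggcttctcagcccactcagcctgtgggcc

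The centre of the site was 9423 bp from the start of ANTXR2. It was spanned by 1 longer transcript of the gene and lay outside the canonical one. The H3K36me2 fold enrichment there was 3.46 and 2.95 without UV and 2.60 and 2.98 at 3 h, and the conditions overlapped.

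Sites shared by all lists were counted for each antibody. All 4 H3K36me2 lists shared 3535 sites centred in the early stretches of 1935 genes (31.1%). All 6 CTD lists shared 27 sites, which lay in the early stretches of 28 genes (0.451%) because some stretches overlap. The number of lists that had to share a site differs between the antibodies, so these counts were not compared. Peaks were weak in general. The median −log10 p of the peaks in the early stretches was 1.84 to 1.89 in the H3K36me2 lists and 1.44 to 1.55 in the CTD lists. A −log10 p of 3 was reached by 549 to 742 peaks per H3K36me2 list and by 13 to 21 of the 10825 to 11731 peaks per CTD list. The median fold enrichment was 1.78 to 1.85 for H3K36me2 and 1.72 to 1.82 for the CTD, and the middle windows gave nearly the same medians (1.79 to 1.86 and 1.73 to 1.83).

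Without UV, H3K36me2 was denser in the early stretches than in the 9 kb in the middle of the same genes, and this excess was smaller or absent at 3 h. Against a middle window that scales with gene length, and so gives long genes more weight, the excess was not there without UV either, with a mean log2 ratio of −0.024 for peak centres and −0.017 for coverage. Counted from the canonical start, the mean log2 ratio without UV was 0.089 for peak centres and 0.0063 for coverage. For coverage the lists without UV then lay at −0.013 and 0.025, so almost no excess was left over the middle of the gene record. Only the early stretch was moved in this setting, so in some genes it can overlap the middle window. The part of such overlaps in the smaller excess was not tested. With the start of the gene record, peak centres in the early stretches numbered 169 and 174 per Mbp before irradiation and 146 and 145 afterwards. The middle of the genes had 154 and 158 per Mbp before and 144 and 143 afterwards. Both lists without UV thus had the higher early values, and the early densities of the conditions did not overlap. On a log2 scale the early-to-middle ratio of peak centres was 0.13 and 0.14 without UV and 0.021 and 0.013 at 3 h, positive in 4 of 4 lists. Over all 4 lists its mean was 0.077 ± 0.069 (SD, n = 4; two-sided exact sign-flip test, p = 0.125, the smallest this test allows, adjusted p = 0.375 over 6 tests).

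The share of bases covered by a peak followed the densities in the lists without UV but not at 3 h. It was 15.0% and 15.3% in the early stretches without UV and 11.1% and 11.1% at 3 h, against 14.0% and 14.1% and then 11.5% and 11.4% in the middle. The early stretches were therefore above the middle in both lists without UV and below it in both lists of 3 h. The log2 ratio of coverage averaged 0.031 ± 0.090 over the lists (SD, n = 4; exact sign-flip p = 0.5, adjusted p = 0.6). Its sign over all lists depended on the definition of the start. With the early stretch alone moved to the start of the canonical transcript it was −0.090.

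At 3 h after UV, the early stretches had fewer H3K36me2 peaks and less coverage than without UV, and the difference was larger than in the middle. Peak centres were lower by 25.8 ± 2.48 per Mbp (difference of means ± SE, 2 against 2 lists; p = 0.333 in an exact permutation test on both sides, which cannot give less here). Coverage was lower by 4.08 ± 0.137 percentage points (exact permutation p = 0.333). The log2 early-to-middle ratio was lower at 3 h by 0.12 ± 0.0056 for peak centres and by 0.16 ± 0.0071 for coverage (exact permutation p = 0.333 for both). With 2 lists per condition no such test can pass 0.05, and after adjustment over 8 tests all 4 of these p-values were 0.667. All 4 differences kept their sign under every alternative tried.

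These lists have a fixed length, and that bears on the comparison. Each held 500000 peaks, so peaks that are missing in the early stretches at 3 h were listed elsewhere. The early stretches took 1.89% and 1.94% of all listed peak centres without UV, against 1.64% and 1.62% at 3 h. The whole lists also covered less of the genome at 3 h, 401 and 414 Mbp, than without UV, 458 and 441 Mbp. The early stretches accounted for 1.83% and 1.94% of the covered bases without UV and for 1.55% and 1.49% at 3 h.

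CTD peaks were about as dense in the early stretches as in the middle. The early stretches held 209, 213 and 197 centres per Mbp without UV and 205, 210 and 214 at 3 h, and the middle held 204, 206 and 201 and then 205, 206 and 209. The third replicate without UV was the only list with fewer centres early than in the middle. The mean log2 ratio was 0.019 ± 0.029 (SD, n = 6; exact sign-flip p = 0.188, adjusted p = 0.375), higher early in 5 of 6 lists. Coverage of the early stretches was 14.6%, 12.7% and 10.5% without UV and 12.6%, 12.8% and 14.1% at 3 h, with a mean log2 ratio to the middle of 0.021 ± 0.061 (SD, n = 6; exact sign-flip p = 0.375, adjusted p = 0.563). The CTD lists without UV were spread more widely than those at 3 h.

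Between the conditions, CTD densities in the early stretches differed by less than the spread of the replicates. They were higher at 3 h by 3.14 ± 5.51 centres per Mbp (SE, 3 against 3 lists; exact permutation p = 0.6, with 0.1 the smallest possible), and coverage was higher by 0.554 ± 1.25 percentage points (exact permutation p = 0.8). Leaving out the third replicate without UV turned both differences negative, to −1.67 per Mbp and −0.477 points. The difference of the log2 early-to-middle ratio was 0.0019 ± 0.027 for centres and 0.027 ± 0.054 for coverage, and their sign also turned without that replicate (exact permutation p = 1 and p = 0.9). The ratio itself was lower for the CTD than for H3K36me2 by 0.057 ± 0.037 for centres (4 against 6 lists; exact permutation p = 0.129, adjusted p = 0.375) and by 0.0092 ± 0.051 for coverage (exact permutation p = 0.867). The latter turned to 0.014 and 0.019 without the first or the second H3K36me2 list of no UV and to 0.013 without the third CTD list of no UV. Against the middle window that scales with gene length, both differences had the opposite sign, with the CTD higher by 0.18 for centres (exact permutation p = 0.0048, the smallest possible) and by 0.23 for coverage (exact permutation p = 0.019). Antibody, genotype and control differ together in this last comparison and cannot be told apart.

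Resolved in 1-kb steps, the early stretch began on the shoulder of a trough of H3K36me2 and of a crest of the CTD. From the gene start to 1 kb, H3K36me2 had 102 ± 10.4 centres per Mbp without UV and 76.5 ± 3.19 at 3 h (mean ± SD, n = 2 each). In the first step of the early stretch, from 1 to 2 kb, it reached 162 ± 2.50 and 121 ± 1.25, and from 2 to 3 kb 178 ± 1.93 and 150 ± 1.93. Beyond that, densities without UV lay between 165 and 179 per Mbp up to 10 kb. Those at 3 h lay between 141 and 154 per Mbp. The promoter-proximal trough therefore extended into the first step, more so at 3 h.

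The difference between conditions was present in each step of the early stretch. In 9 of 9 steps both 3 h lists were below both lists without UV, for centres as for coverage. On a log2 scale the difference in centres was −0.42 in the step from 1 to 2 kb, −0.24 from 8 to 9 kb and −0.097 from 9 to 10 kb. For coverage it went from −0.64 in the first step to −0.35 in the last. The difference did not end with the early stretch. In the steps from 10 to 25 kb it lay between −0.22 and −0.070 for centres and between −0.37 and −0.28 for coverage. The steps are not independent of each other, since single broad peaks cross their borders. Upstream of the start, from −2 to −1 kb, the density was highest with 235 ± 8.76 without UV and 207 ± 0.57 at 3 h, a log2 difference of −0.18.

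The CTD profile had the opposite shape at the start. Its crest reached into the first step of the early stretch, and it was nearly flat from 2 to 10 kb. From 0 to 1 kb, the CTD lists had 277 ± 35.0 centres per Mbp without UV and 285 ± 72.3 at 3 h (mean ± SD, n = 3 each). From 1 to 2 kb the values were 217 ± 17.3 and 225 ± 9.77, and from 2 to 10 kb all means lay between 197 and 216. In 0 of 9 steps were all 3 h lists below all lists without UV. In 1 step, from 6 to 7 kb, they were all above (216 ± 3.06 against 206 ± 6.04; exact permutation p = 0.1, the smallest possible), which is not a result after 9 steps were looked at.

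**Figure D1:**
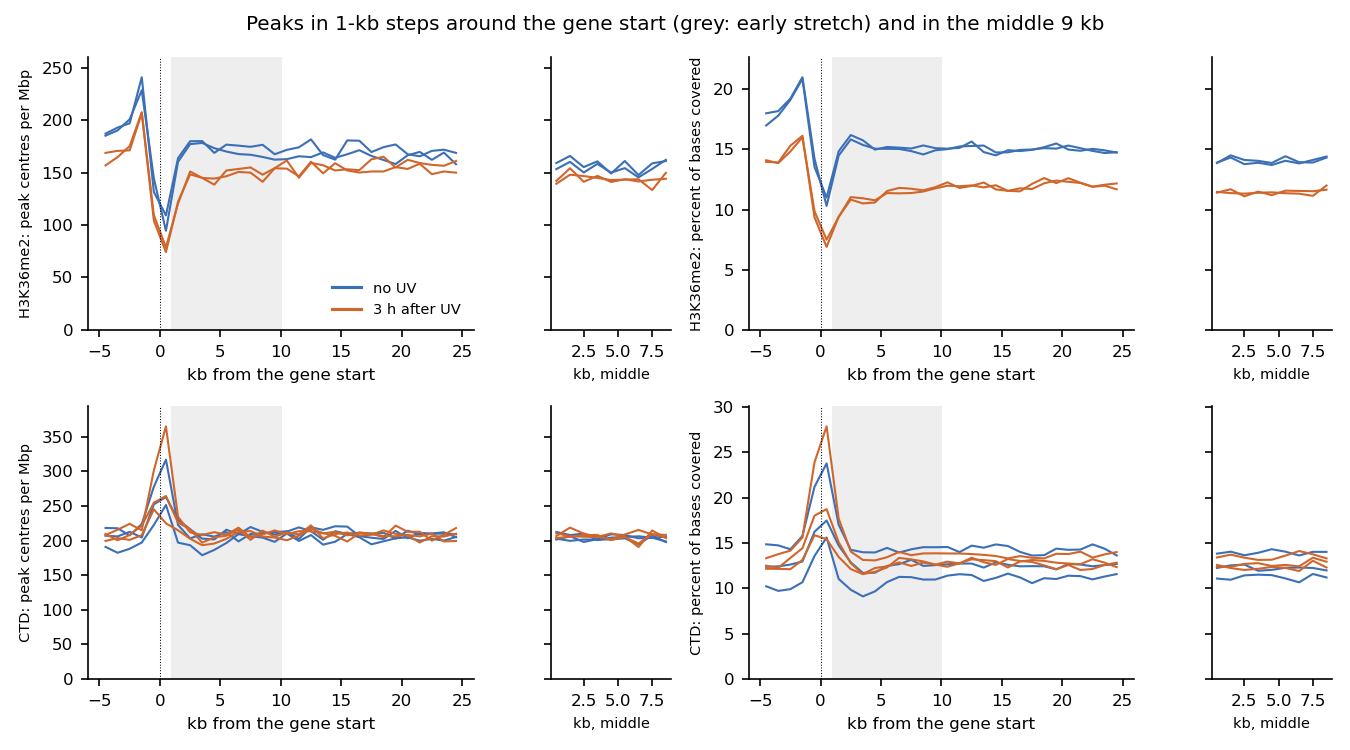
H3K36me2 (top) and CTD (bottom) in 1-kb steps from 5 kb upstream to 25 kb downstream of the gene start, and over the middle 9 kb in the narrow panels, as peak centres per Mbp (left) and percent of bases covered (right). Each line is one list, without UV in blue and at 3 h in orange, and the early stretch is shaded grey. The H3K36me2 lines of the conditions are apart in all 9 shaded steps, most in the step from 1 to 2 kb, whereas the CTD lines cross.

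The H3K36me2 difference went with GC content. The 1-kb steps of the early stretches and middles were pooled and divided into 5 bins of GC with equal numbers of steps. In early steps with less than 36.1% GC, coverage was 2.79% and 2.80% without UV and 2.81% and 2.75% at 3 h, and the conditions overlapped. In those above 47.8% GC it was 28.0% and 30.8% without UV against 16.3% and 16.9% at 3 h, and they were far apart. On the log2 scale the difference between conditions was −0.0076, 0.020, −0.19, −0.40 and −0.83 from the GC-poorest to the GC-richest bin of early steps. For peak centres it was 0.076, 0.11, −0.092, −0.27 and −0.54. In the GC-poorest bin the lists overlapped, with 45.9 and 42.0 centres per Mbp without UV and 47.9 and 44.7 at 3 h. In the next bin there were slightly more at 3 h, with 126 and 118 against 114 and 111.

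The middle of the genes showed nearly the same dependence. There the difference in coverage was 0.091, 0.11, −0.042, −0.24 and −0.70 over the same bins. In every bin the early steps were lower relative to the middle at 3 h than without UV. When the 5 bins were given equal weight, the log2 early-to-middle ratio of coverage was 0.012 without UV and −0.12 at 3 h. The corresponding ratio of centres was 0.061 and −0.041. Much of the early excess without UV was therefore not present at matched GC, while the difference between conditions in the ratio was of similar size. The peak lists hold no reads, and the part of GC-dependent library preparation in these values was not tested.

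CTD coverage also increased with GC, but unequally among replicates of a condition. In early steps above 47.8% GC, coverage was 28.7%, 17.5% and 12.9% in the lists of no UV and 16.6%, 16.7% and 28.0% at 3 h. The first replicate without UV and the third replicate at 3 h thus stood apart from the other lists. In the steps below 36.1% GC the same 2 lists were the lowest, with 3.32% and 3.32%, and the other 4 lay between 5.40% and 7.19%. The conditions overlapped in both bins. The spread between CTD replicates given above moved with this contrast in GC, and its part in the CTD comparisons was not tested.

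The same relation was seen across chromosomes. Early H3K36me2 coverage was lower at 3 h on 22 of 22 autosomes, and on 21 of them the log2 difference was larger in size in the early stretches than in the middle. It was −1.38 on chromosome 19, where early stretches averaged 13% covered without UV and 5.01% at 3 h, −1.14 on chromosome 22 and −0.82 on chromosome 16. It was −0.15 on chromosome 4 (13.6% and 12.3%), the autosome with the smallest difference. Across the 22 autosomes, the log2 difference and the mean GC content of the early stretches had a Spearman correlation of −0.92. This is a description, since all chromosomes come from the same 4 lists. For the CTD the log2 differences were between −0.052 and 0.22, and 3 of 22 were negative.

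Gene length and gene structure sorted the early stretches further. In genes of 50 to 100 kb (3015 genes), early H3K36me2 coverage without UV was 14.9%, in those of 100 to 200 kb (2069) it was 15.3% and in those of 200 to 500 kb (1129) it was 15.6%. Coverage in the middle went from 12.5% through 14.8% to 17%. The early excess without UV was therefore found in the shorter genes, with a log2 ratio of 0.26, 0.054 and −0.13 in the 3 classes. Early coverage at 3 h was 10.2%, 11.5% and 12.5%. The log2 difference between conditions in the early stretches was −0.54, −0.41 and −0.31.

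Among stretches inside the canonical transcript, those wholly in the first intron carried more H3K36me2 than the others. In 2634 genes the whole early stretch lay in the first intron of the canonical transcript, and coverage was 15.7% without UV and 11.1% at 3 h. In 2016 genes the stretch lay inside the canonical transcript but also held an exon or a later intron. Coverage there was 10.7% without UV and 7.43% at 3 h. The middles of the same genes had 14.3% and 12.0% without UV, so the early stretch was above the middle in the former class and below it in the latter (log2 ratios of 0.14 and −0.17). CTD coverage differed less, with 12.5% and 12.1% without UV.

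Single genes ranged from bare to fully covered. Between 27.4% and 29.9% of early stretches had no H3K36me2 peak in the lists without UV, and 36.2% and 38.3% had none at 3 h. Of the middle windows, 36.04% and 33.88% had none without UV, and 40.19% and 41.32% had none at 3 h. The share without a peak was thus higher at 3 h in both windows. In 963 genes (15.5%) the early stretch was uncovered in all 4 lists, in 2961 (47.7%) it was covered in part in all 4, and in 102 at least 50% of it was covered in each list. Over genes, the early coverage without UV and that at 3 h had a Spearman correlation of 0.81, and that without UV and the middle of the same genes one of 0.45 (n = 6213 genes, which are not replicates). Replicates of H3K36me2 had correlations of 0.81 without UV and 0.79 at 3 h, those of the CTD between 0.21 and 0.35. H3K36me2 and CTD early coverage correlated at 0.29 without UV and 0.16 at 3 h. Both also correlated with GC content, H3K36me2 at 0.32 and the CTD at 0.43 without UV. At 3 h these correlations with GC were 0.10 and 0.46.

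Overlaps between the early peaks of both antibodies were counted beside the share of bases under H3K36me2. Without UV, peaks of either H3K36me2 list covered 21.6% of the early bases, and 45.6%, 41.1% and 38.6% of the early CTD peaks touched one by at least 1 bp. At 3 h they covered 16.2%, and 32.4%, 32.8% and 35.9% touched one. The middle of the genes gave 36.1% to 43.6% without UV and 33.0% to 35.9% at 3 h. These shares are unlike measures, since the early CTD peaks had median widths of 419 to 523 bp and a touch needs only 1 bp. Touching is therefore more frequent than the share of bases even for randomly placed peaks, and no enrichment was tested. The cells differ in ASH1L genotype, so these are overlaps between experiments.

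The early stretch and the middle differed in H3K36me2 coverage in 1728 of 5729 genes tested by limma (adjusted p under 0.05 over all genes, all 4 lists). Early coverage was higher in 892 of them (15.6%) and lower in 836 (14.6%). This split depended on the windows, with 657 higher and 796 lower from the canonical start and 841 higher and 1287 lower against the middle window that scales with gene length. The largest excess was in HDAC7, which encodes a class IIa histone deacetylase, with 79.7% and 85.2% of chr12:47823133-47832132 covered without UV, 73.2% and 83.7% at 3 h and 0 to 2.84% in the middle. Its difference was 79.7 ± 11.2 percentage points (SE; limma adjusted p = 0.0063). GSTM5 (a glutathione transferase), MTPAP (the mitochondrial poly(A) polymerase), ACSL5 (an acyl-CoA synthetase), FYCO1 (an adaptor of autophagosome transport) and CLIP4 followed with 72.0 to 75.1 points. In ACSL5 and FYCO1 the stretch was wholly in the first intron. In HDAC7, MTPAP and CLIP4 the canonical transcript began 13229, 25170 and 17710 bp from the start of the gene record. Counted from there, the differences were 24.4, 0 and 2.43 points and did not pass the test. The middle window stayed at the midpoint of the gene record. In HDAC7 and MTPAP the moved stretch overlapped it, so these values do not compare separate windows.

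Deficits of similar size were found on the opposite side. ATP2B2, which encodes a plasma membrane calcium pump, had 0, 9.44%, 0 and 0 of chr3:10698008-10707007 covered in the 4 lists, against 78.3% to 92.7% of its middle. The difference was −83.2 ± 10.4 points (SE; limma adjusted p = 0.0053). WNT7A (a Wnt ligand) had 0 to 10.3% early and 81.1% to 100% in the middle, and CELF4 (an RNA-binding protein of neurons) 0 in all 4 lists and 71.2% to 87.8%. TRPM8 (the cold-sensing channel), SRGAP3 (a GTPase-activating protein) and DPF3 (a subunit of BAF remodelling complexes) had differences of −76.1, −75.5 and −72.5 points. The canonical starts of ATP2B2 and SRGAP3 lie 202421 and 113407 bp from the start of the gene record. For the CTD, limma called 0 of 6126 genes, with 468 at an unadjusted p under 0.05.

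No early stretch changed in H3K36me2 coverage at 3 h by limma (adjusted over early and middle windows together), with 745 of 5250 early stretches at an unadjusted p under 0.05. In the middle, 594 of 4840 windows reached that p. All 3 h lists were below all lists without UV in 1794 of 5250 early stretches (34.2%), against 28.6% of middle windows. They were all above in 505 (9.62%), against 10.8% of middle windows. When the peaks were limited to those that recur between replicates, limma called 1346 of 3813 early stretches (35.3%, 1046 of them lower at 3 h) and 1133 of 3511 middle windows (32.3%, 772 of them lower), but selection on recurrence by itself makes the 2 replicates of a condition alike. For the CTD limma likewise called 0 of 6081 early stretches, with 288 at an unadjusted p under 0.05. The lists of 3 h were all below in 253 (4.16%) and all above in 340 (5.59%), beside 3.93% and 5.21% of middle windows.

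The genes with the largest differences between conditions, among those whose lists did not overlap, are given as a description. DYSF, which encodes the membrane repair protein dysferlin, had 86.4% and 90.8% of chr2:71454561-71463560 covered by H3K36me2 without UV and 28.0% and 20.3% at 3 h. PRPSAP1 (a partner of phosphoribosyl pyrophosphate synthetase) had 78.3% and 78% and then 16.9% and 24.4%. The readthrough record PRR5-ARHGAP8, SPIRE2 (an actin nucleator) and CPNE2 (a copine) completed this group, and all 5 had early GC contents between 51.8% and 57.6%. On the opposite side, TMEM156 had 33.8% and 35.3% without UV and 74.1% and 66.8% at 3 h. COLEC10 (a collectin), SERP1 (a stress protein of the endoplasmic reticulum), SELENOP (the selenium transport protein) and BLNK (an adaptor of B-cell receptor signalling) followed, with early GC contents of these 5 genes between 36.8% and 43.7%. GC content was not used to choose them. The canonical transcripts of DYSF, PRPSAP1 and SPIRE2 began 13138, 30605 and 10296 bp from the start of the gene record. Those of COLEC10, SERP1 and SELENOP began 71795, 56732 and 75500 bp from it. The early stretches of these genes therefore lay outside the canonical transcript.

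For the CTD, values within a condition were more scattered. RAB11A, a GTPase of recycling endosomes, had 19.1%, 28.5% and 54.4% of its early stretch covered without UV and 0, 10.1% and 0 at 3 h. CFAP221 (a ciliary protein), CAMKK2 (a calcium-dependent kinase), IL2RA (the interleukin-2 receptor alpha chain) and THAP4 were lower at 3 h by 27.8 to 29.5 points. PTPRU, a receptor tyrosine phosphatase, had 14.4%, 0 and 10.7% without UV and 26.8%, 49.3% and 68.5% at 3 h. PLA2G6 (a phospholipase A2), IL17RD, CSNK1G1 (a casein kinase) and SNX31 (a sorting nexin) were higher by 32.3 to 33.8 points. The canonical transcripts of RAB11A, PLA2G6 and SNX31 began 143437, 32948 and 13750 bp from the start of the gene record, beyond their early stretches. With a −log10 p of at least 2, the sign turned in RAB11A, CFAP221, CAMKK2, PLA2G6, IL17RD and CSNK1G1.

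ASH1L itself, a gene of 228 kb on chromosome 1, had little of either mark in its early stretch, chr1:155553163-155562162, which is almost wholly in the first intron. H3K36me2 covered 0 and 8.50% of it without UV, and neither list of 3 h had a peak in it. The CTD covered 0, 7.12% and 8.14% in the lists of no UV and 4.49%, 2.17% and 12.2% at 3 h. The conditions overlapped for both. Its middle had 0 and 11.7% H3K36me2 without UV and 0 and 3.22% at 3 h.

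Lists of genes by function were counted against all 6213 genes, of which 892 had higher and 836 lower early coverage than the middle, 1794 (28.9%) had both H3K36me2 lists of 3 h below those without UV and 505 (8.13%) had both above. Of 28 listed genes for H3K36 methylation and ASH1L partners, 21 were in the set, and 3 of them had higher and 1 had lower early coverage. The lists of 3 h were all below in 10 (47.6%, beside 28.9% of all genes) and all above in 0. The median early coverage of these genes was 6.07% without UV and 1.03% at 3 h, beside 8.90% and 5.17% for all genes. Among them, the demethylase gene KDM4B had 33.2% and 64.7% without UV and 19.6% and 13.4% at 3 h, and KDM2B, a demethylase of H3K36me2, 34.4% and 31.5% and then 22.3% and 37.7%. EZH2, the methyltransferase of H3K27, and KDM4A were at 0 in all 4 lists.

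Genes of nucleotide excision repair, the pathway that removes UV lesions, were few in this length range, 16 of 38 listed. Of these, 3 had higher and 0 had lower early than middle coverage. In 6 (37.5%) the lists of 3 h were all below and in 1 (6.25%) all above, beside 28.9% and 8.13% of all genes. Their medians were 11.6% without UV and 2.04% at 3 h, beside 8.90% and 5.17% for all genes. In 5 of them (31.25%) neither list without UV had early coverage, beside 19.9% of all genes. RPA3, a subunit of the single-strand binding protein RPA, had 29.1% and 39.3% without UV and 34.4% and 28.4% at 3 h. ERCC1, a subunit of the nuclease that cuts 5′ of the lesion, had 15.0% and 31.8% and then 0 and 2.28%. The canonical transcript of ERCC1 began 54911 bp from the start of the gene record, beyond this early stretch. The cyclin gene CCNH of TFIIH and the ligase gene LIG1 were at 0 in all 4 lists.

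Genes of DNA damage signalling and break repair had the lowest median coverage of the 6 lists without UV, with 25 of 32 listed genes in the set. Of these, 13 had no early coverage in either list without UV (52.0%, beside 19.9% of all genes), and the median was 0 in both conditions. SMC6, of the SMC5/6 complex, was an exception with 57.7% and 51.9% without UV and 46.6% and 52.3% at 3 h. TP53BP1, which encodes the break-repair factor 53BP1, had 35.2% and 30.3% and then 34.8% and 6.66%. The canonical transcripts of SMC6 and TP53BP1 began 46432 and 17572 bp from the start of the gene record, beyond their early stretches. The kinase gene ATM and BARD1, the partner of BRCA1, were at 0 in all 4 lists. The list had 3 genes with higher and 1 with lower early coverage. In 3 (12%) the lists of 3 h were all below, beside 28.9% of all genes.

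Broadly expressed chromatin and RNA regulators made up a list of 46 genes, with 39 in the set. Of these, 3 had higher and 2 lower early coverage. The lists of 3 h were all below in 10 (25.6%) and all above in 1 (2.56%), beside 28.9% and 8.13% of all genes. KMT2E, a reader protein, had the highest coverage in this list with 32.8% and 29.3% without UV, and the transcription-elongation kinase gene CDK12 was at 0 in all 4 lists. CDK13, which encodes a related kinase, was at 0 in both lists without UV. In KMT2E the canonical transcript began 73262 bp from the start of the gene record, beyond the early stretch. Of 47 listed genes for neuronal receptors, channels and synapse, 38 were in the set, and 5 had higher and 4 lower early coverage. In 9 of them (23.7%) the lists of 3 h were all below and in 5 (13.2%) all above. CACNA1I, a T-type calcium channel gene, had 83.5% and 94.0% without UV and 76.0% and 64.9% at 3 h, and CACNA1E 74.4% and 44.1% and then 48.4% and 42.2%. The channel gene CACNA1B and the muscarinic receptor gene CHRM2 were at 0 in all 4 lists.

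The bone and extracellular matrix list belongs to the lineage of the osteosarcoma line. Of its 34 genes 27 were in the set, and 4 had higher and 3 lower early coverage. The lists of 3 h were all below in 8 (29.6%) and all above in 3 (11.1%), beside 28.9% and 8.13% of all genes. The median was 14.5% without UV and 8.13% at 3 h, beside 8.90% and 5.17% for all genes. LRP5, a Wnt co-receptor in bone, had 54.9% and 73.3% and then 17.2% and 31.1%. The collagen genes COL11A1 and COL12A1 were at 0 in both lists without UV.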

How the data were processed

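Conditions and replicate numbers of the 10 peak lists were read from the sample titles. Per the submitters' notes and the methods of the study, reads were aligned to hg38 with BWA 0.7.17-r1188 and broad peaks were called per replicate with MACS2 2.2.7.1, H3K36me2 against inputs pooled over duplicates. Each deposited peak has a position, a fold enrichment (a ratio of ChIP to control), a −log10 p-value and a −log10 q-value as the authors' caller gave them. The deposited lists carry no read depth, so that counting error cannot be computed and precision rests on replicates. Each holds 500000 peaks sorted by −log10 p. Peak ends lay inside the hg38 chromosomes of the reference.

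Gene records came from GENCODE release 44. Peak centres and covered bases were counted in 1-kb steps with Python 3.11.15 and NumPy 2.4.6, with all deposited peaks, each gene counting once. Exact permutation and sign-flip tests (both sides) were used for densities, with Benjamini-Hochberg adjustment, and single genes by limma 3.58.1 in R 4.3.3 (eBayes with trend) on percent covered, leaving out windows at 0 in all lists. Alternatives were recurring peaks, −log10 p of at least 2 or 3, the canonical start, genes without a further coding start within 1 kb, a middle window that scales with gene length, a replicate block and leaving out each replicate. With the canonical start only the early stretch was moved, and the middle window kept to the gene record. Functions were tested on simulated data. The genes and lists were chosen with earlier results of these data known.

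The named genes were ASH1L, the 6 genes per direction with the largest early-to-middle difference among those called with the same sign in every list, the 5 per direction with the largest difference between conditions among those whose lists did not overlap (since limma called fewer than 3), and the 2 highest and 2 lowest of each list in early coverage without UV, in alphabetical order where tied at 0. Some named genes and sites are not reported here.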

Additional observations from a re-analysis of the deposited data

How the results depend on the processing

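The H3K36me2 differences between conditions kept their sign in all 11 or 12 alternatives other than leaving out a list and in all 4 that left one out: −28.3 to −2.79 centres per Mbp and −4.22 to −0.73 points of coverage in the early stretches, −0.19 to −0.10 and −0.24 to −0.052 in the log2 early-to-middle ratio. The smallest came with a −log10 p of at least 3, which leaves far fewer peaks, except in the ratio of centres, where the range from 2 to 10 kb gave the smallest.

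The early-to-middle comparisons were less stable, and the cause was not tested unless stated. In the order centres then coverage, the mean log2 ratio of H3K36me2 became −0.12 and −0.14 against a middle window that scales with gene length, which gives long genes more weight by construction, and −0.014 and −0.18 with a −log10 p of at least 3. Its coverage ratio alone became −0.033 with a −log10 p of at least 2, −0.090 with the canonical start and −0.056 with equal weight over GC bins. The CTD ratio became −0.0073 and −0.025 with a −log10 p of at least 2, −0.22 and −0.15 with at least 3 and −0.029 and −0.038 with equal GC weight. The CTD ratio of centres was −0.0033 with recurring peaks overlapped by 50%, and that of coverage −0.00056 with the canonical start and −0.0054 from 2 to 10 kb. CTD minus H3K36me2 in the ratio became 0.18 and 0.23 against that window (exact permutation p = 0.0048, the smallest possible, and p = 0.019), in coverage 0.0079 and 0.031 with a −log10 p of at least 2 and 3, 0.090 with the canonical start and 0.017 with equal GC weight. In centres it passed an unadjusted 0.05 at −0.088 from 2 to 10 kb and at −0.073 in steps without a transcript start. The CTD difference between conditions in the ratio turned to −0.27 (−log10 p of at least 3), −0.00012 (canonical start), −0.0028 (2 to 10 kb) and −0.0030 (GC weight) for centres and to −0.0058 (−log10 p of at least 2) for coverage. The GC weighting, the 2 to 10 kb range, the steps without a transcript start and the stretches without overlap were chosen after seeing the data.

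Leaving out each list in turn gave −1.67 to 6.47 centres per Mbp and −0.48 to 1.53 points for the CTD between conditions, −0.023 to 0.018 and −0.023 to 0.053 in the log2 ratio, and −0.035 to 0.019 for CTD minus H3K36me2 in the coverage ratio. The third CTD replicate without UV turned all 5, either H3K36me2 list of no UV turned the last, and the second or the third CTD replicate at 3 h turned the CTD difference in the ratio of centres. Genes called in H3K36me2 early against middle were 1191 to 1427 without 1 list, 562 with a −log10 p of at least 2, 2342 on the arcsine scale and 1728 in the report. For the CTD the arcsine scale called 21. Counts for UV were 0 except 1346 with recurring peaks and those with a block below. Of named genes, MTPAP had 0 with the canonical start, where the moved stretch overlapped the middle window. With a −log10 p of at least 2 the CTD differences of RAB11A, CFAP221, CAMKK2, PLA2G6, IL17RD and CSNK1G1 were 1.75, 2.23, 2.36, −1.65, −2.40 and −0.66 points.

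Deviations of same-numbered lists from their group means correlated at 0.012 for H3K36me2 and at −0.078, 0.050 and −0.17 for the CTD. With 2 lists per condition these deviations mirror each other, so H3K36me2 gave only 1 value up to its sign. Such values cannot decide whether same-numbered lists were prepared together. As a replicate block, the replicate number gave 214 H3K36me2 calls in early stretches (4.08%), 210 of them lower at 3 h, and 135 in the middle (2.79%). It gave 0 for the CTD and left the H3K36me2 differences of −25.8 centres per Mbp and −4.08 points as they were. Not every CTD list correlated best with its own number.

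With 2 lists per condition the exact permutation tests of H3K36me2 between conditions cannot pass 0.05, depth is not carried by the lists, and most peaks, above all those of the CTD, are weak.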

Other observations

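Strand made little difference to the early stretches. H3K36me2 coverage without UV was 15.2% on the plus strand (3183 genes) and 15.1% on the minus strand (3030 genes), and 11.0% and 11.1% at 3 h. Early stretches with the start of another protein-coding gene in or within 1 kb of them (648 genes) had 12.2% and 8.20%, those without (5565 genes) 15.5% and 11.4%. The 1-kb steps that hold an annotated transcript start of any gene (6.44% of early steps) had 126 and 134 H3K36me2 centres per Mbp without UV, against 172 and 176 in the other early steps. For the CTD the order was the reverse, with 265, 230 and 212 against 206, 212 and 196 per Mbp. At 3 h these steps had 214, 235 and 273 CTD centres per Mbp, against 205, 208 and 210 in the others. No test was made of these values.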
